A study of Homo sapiens with 6 samples.

Results

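The kinetochore and spindle checkpoint genes described here are 45 protein-coding genes that build the chromosome's attachment site for spindle microtubules or watch over that attachment. They were chosen by gene name, with earlier results of these data known, and all 45 were among the 33451 genes of the table of counts. All 45 also passed the low-count filter, so none was left out of the 18183 genes tested. By role, 15 belong to the inner kinetochore, 17 to the outer kinetochore and 13 to the checkpoint group, which here holds the spindle checkpoint proteins, the chromosomal passenger complex and the shugoshins.

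The cells were MDA-MB-453, an established human breast cancer line that is known to lack oestrogen and progesterone receptors and to express HER2. The 25(OH)D group was cultured for 5 days with 100 nM 25(OH)D, the main circulating form of vitamin D, and the control group for 5 days with alcohol, the solvent. Each group had 3 libraries of mRNA, which the study describes as biological replicates of this 1 line. The study asked how 25(OH)D acts on breast cancer cells, and the comparison of 25(OH)D with control is the one its design gives.

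A kinetochore is assembled on each centromere in layers. Nucleosomes that carry CENP-A, a variant of histone H3, mark the centromere, and CENP-C together with the other CENP proteins of the constitutive centromere-associated network binds them through the cell cycle. In mitosis this inner layer recruits the KMN network, made of KNL1 and the MIS12 and NDC80 complexes, and the NDC80 complex holds the microtubule. Kinetochores without proper attachment gather the spindle checkpoint proteins, which keep CDC20 from activating the anaphase-promoting complex until every chromosome is attached. Many of these genes are transcribed mainly in late S, G2 and M phase in dividing cells, under repression by the DREAM complex in resting cells and activation by B-MYB and FOXM1.

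Most of the 45 genes were lower in the 25(OH)D libraries, by small amounts. In the test of 25(OH)D against control, 33 of the 45 (73.3%) were lower at an adjusted p under 0.05, 2 were higher (BUB3 and ZWINT) and 10 did not pass. Of all genes tested, 16.5% were lower and 17.3% were higher by the same rule. Here and below, adjusted p-values come from the quasi-likelihood test of edgeR, with the Benjamini-Hochberg procedure applied across all 18183 genes. The median log2 fold change of the 45 genes was -0.36, with quartiles of -0.49 and -0.17, beside a median of -0.011 over all genes tested. In these bulk libraries, fewer cells in the phases that express such genes and less of their RNA per cell cannot be told apart.

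The changes were modest in size. The log2 fold changes of the members ran from -0.71 (TTK) to 1.46 (BUB3), and BUB3 was the only member past an absolute log2 fold change of 1 with an unadjusted p under 0.05, limits that 6.65% of all genes passed. The 3 libraries of each group were close together for most members. In 35 members every 25(OH)D library was below every control library, in 2 members every 25(OH)D library was above, and in 8 the groups overlapped. Among all genes tested, 22.9% separated downwards and 22.8% upwards in this way.

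**Figure D1:**
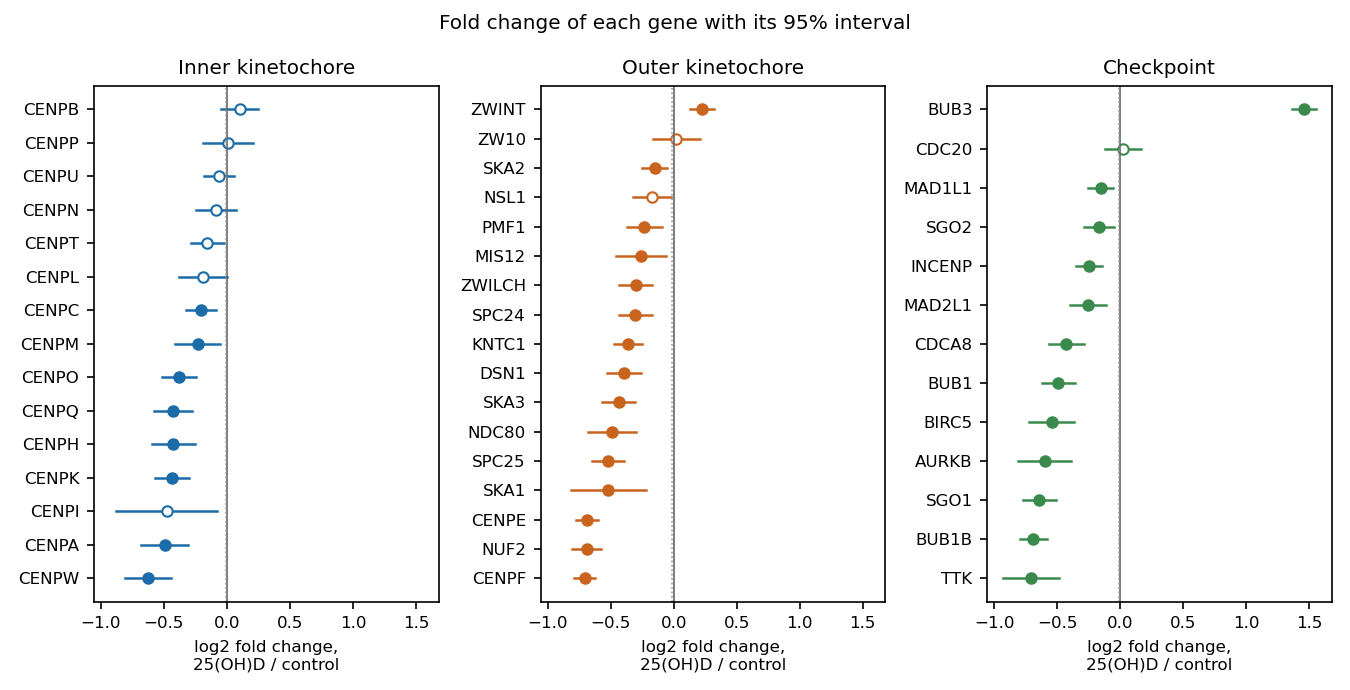
Log2 fold change of 25(OH)D against control (horizontal axis) for each of the 45 genes (vertical axis), in 3 panels by role. Points are the fitted values, bars are 95% intervals, filled points passed an adjusted p of 0.05, the solid line marks 0 and the dotted line marks the median of all genes tested. All points but 6 lie left of 0, and BUB3 stands far to the right at 1.46.

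As a share of all counts, the 45 genes together took 0.477%, 0.490% and 0.498% in the 3 controls and 0.384%, 0.385% and 0.372% with 25(OH)D. Every 25(OH)D library was below every control library, with a mean of 0.488% ± 0.0105 (SD, n = 3) in control and 0.380% ± 0.00736 (SD, n = 3) in 25(OH)D. The two-sided exact permutation test gave p = 0.1, the smallest value that 3 libraries against 3 allow. CENPF alone made up 33.4% of the members' counts in control and 25.5% in 25(OH)D. Without it the share of the other members was 0.325% ± 0.00988 in control and 0.283% ± 0.00346 in 25(OH)D (SD, n = 3).

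The 6 libraries held between 33268860 and 40928176 counts, and the principal component with the largest share of variance (64.8%) separated the groups. Counts of mitochondrial genes made up 7.85% to 7.99% in control and 8.89% to 9.24% in 25(OH)D, and the part of this difference in the results was not tested. With the mitochondrial genes left out of the fit, 31 of the 33 lower calls held and those of CENPM and MIS12 did not. Markers of the line were present, with ERBB2, KRT8, KRT18 and FOXA1 all at over 80 CPM (the count scaled to a library size that TMM had adjusted) in both groups. ESR1 and PGR had at most 8 counts in any library. Of 8 markers of blood, fibroblast and endothelial cells, 1 was tested, and the others that were listed had at most 16 counts in any library. The tested gene was COL1A1, a collagen gene of fibroblasts, with 37.5 ± 1.39 CPM in control and 33.1 ± 1.19 CPM in 25(OH)D (SD, n = 3) and a log2 fold change of -0.18 (edgeR adjusted p = 0.032), and its part in the results was not tested.

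The bases just upstream of the gene starts were read for 38 members that have a promoter sequence in RefSeq (GRCh38.p14). CENPH, CENPM, CENPL, KNTC1, BUB3, TTK and BIRC5 had no entry in the table used. The window ran from 250 bases before to 50 bases after the RefSeq start. The letters of the cell cycle genes homology region (CHR), TTTGAA on either strand, stood in 17 of the 38 windows (44.7%) and in 9.67% of the 10474 windows of all tested genes with a sequence. By role, they stood in 4 of 12 windows of the inner kinetochore, 8 of 16 of the outer kinetochore and 5 of 10 of the checkpoint group. The letters CCAAT on either strand, the core of the box bound by NF-Y, stood in 24 (63.2%) against 36.9% of all windows, and both sets of letters in 11 (28.9%) against 4.11%. The searched forms of the E2F site (TTTCCCGC, TTTGGCGC, TTTCGCGC and TTTGCCGC, either strand) stood in 3 windows (7.89%) against 5.22%, and none held the direct repeat with a 3-base spacer that the vitamin D receptor binds, which 9 of the 10474 windows held. The median log2 fold change was -0.43 over the 17 members with the CHR letters and -0.30 over the 21 without. For the other letters the split of the medians went the other way, with -0.28 over the members with CCAAT and -0.41 over those without, and -0.26 over the 3 with an E2F form and -0.38 over those without. By calls, 13 of the 17 members with the CHR letters were lower and 15 of the 21 without. For CCAAT these counts were 19 of 24 and 9 of 14, so calls and medians did not order the groups alike. For the E2F forms they were 2 of 3 and 26 of 35. Such letters describe the window and do not show that a factor binds there.

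The upstream 250 bases are shown for CENPF and CENPE, the lower members with the smallest p, for ZWINT, the higher member with a sequence, and for BUB1B, which was added after its values were seen because it has the CHR letters close to its start. They are printed 5′ to 3′ on the strand of the gene, in GRCh38.p14, and capitals mark CCAAT or ATTGG and TTTGAA or TTCAAA.
CENPF, chr1:214602945-214603194, plus strand: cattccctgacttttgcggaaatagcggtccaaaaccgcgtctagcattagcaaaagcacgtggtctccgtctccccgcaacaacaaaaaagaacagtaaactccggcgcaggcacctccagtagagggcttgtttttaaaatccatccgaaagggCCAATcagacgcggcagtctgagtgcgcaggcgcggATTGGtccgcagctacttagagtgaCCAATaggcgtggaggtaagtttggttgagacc
CENPE, chr4:103198344-103198593, minus strand: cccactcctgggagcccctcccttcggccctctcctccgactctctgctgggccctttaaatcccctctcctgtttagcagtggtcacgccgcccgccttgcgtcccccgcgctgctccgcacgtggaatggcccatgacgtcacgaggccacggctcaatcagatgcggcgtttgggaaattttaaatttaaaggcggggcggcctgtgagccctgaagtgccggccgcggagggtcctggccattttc
BUB1B, chr15:40160819-40161068, plus strand: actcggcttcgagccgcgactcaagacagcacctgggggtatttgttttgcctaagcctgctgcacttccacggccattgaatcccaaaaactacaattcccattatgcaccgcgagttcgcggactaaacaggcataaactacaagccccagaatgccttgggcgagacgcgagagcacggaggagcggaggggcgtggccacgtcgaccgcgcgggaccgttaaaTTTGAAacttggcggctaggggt
ZWINT, chr10:56361260-56361509, minus strand: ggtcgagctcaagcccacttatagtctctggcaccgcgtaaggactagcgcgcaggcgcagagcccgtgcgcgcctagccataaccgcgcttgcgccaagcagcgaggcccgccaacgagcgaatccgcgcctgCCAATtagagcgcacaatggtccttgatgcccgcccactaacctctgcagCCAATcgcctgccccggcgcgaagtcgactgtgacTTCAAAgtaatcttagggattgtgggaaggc
CENPF had 3 matches to the CCAAT letters in this stretch, and the 1 match of its window to the CHR letters lay past the start. CENPE had no match. BUB1B had the CHR letters 18 bases before the RefSeq start and no CCAAT. The gene model used for its counts starts at 40161023, so these letters lie within that model. The models of CENPE (to 103198409) and ZWINT (to 56361275) also reach into the stretches printed for them. NUF2, the lower member with the next smallest p, was also read but is not printed. It had no match in this stretch, and the 1 match of its window to the CHR letters lay past the start. ZWINT, which was higher in 25(OH)D, had both kinds of letters, as did lower members.

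In the inner kinetochore, 8 of the 15 genes were lower in 25(OH)D, none was higher and 7 did not pass. The median log2 fold change was -0.23, and it was -0.43 without the members that share exon bases with another gene. The lower genes were CENPA, the histone variant that marks the centromere, CENPC, CENPH, CENPK and CENPM, CENPO and CENPQ, and CENPW. Within the complexes of this layer, 3 of the 4 genes of CENP-H/I/K/M were lower, 2 of the 4 of CENP-O/P/Q/U, 1 of the 2 of CENP-T/W and 0 of the 2 of CENP-L/N.

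CENPW, the histone-fold partner of CENP-T, had 41.1, 37.3 and 36.6 CPM in control and 26.3, 26.8 and 21.3 CPM in 25(OH)D. All 3 of the latter were below all controls, although they differed more among themselves than the controls did. Its log2 fold change was -0.63 (SE 0.0853, adjusted p = 4.93e-05). CENPK, a subunit of the CENP-H/I/K/M complex, had 40.7, 44.7 and 46.2 CPM in control and 31.3, 33.6 and 32.3 CPM in 25(OH)D, with no overlap and a log2 fold change of -0.44 (SE 0.0639, adjusted p = 9.71e-05). CENPO and CENPQ belong to the complex that CENP-P and CENP-U also form. CENPO had 42.5, 41.8 and 46.4 CPM in control and 34.6, 32.5 and 33.1 CPM in 25(OH)D, a log2 fold change of -0.38 (SE 0.0616, adjusted p = 0.000228). CENPQ had 23.4, 25.8 and 24.9 CPM in control and 18.9, 18.2 and 18.0 CPM in 25(OH)D, a log2 fold change of -0.43 (SE 0.0697, adjusted p = 0.000265). In both genes the lowest control library was well above the highest 25(OH)D library. CENPA had 17.9, 17.5 and 16.1 CPM in control and 12.7, 12.6 and 11.2 CPM in 25(OH)D, again without overlap, and its log2 fold change was -0.49 (SE 0.0858, adjusted p = 0.00043).

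Of the other lower genes of this layer, CENPH, the partner of CENP-K, fell by 0.43 on the log2 scale (adjusted p = 0.000761). CENPC, which links CENP-A nucleosomes to the MIS12 complex, had a log2 fold change of -0.21 (adjusted p = 0.0105), and this call was lost without control replicate 2 or 3, with values from -0.25 to -0.17 as each library was left out. CENPM, also of the CENP-H/I/K/M complex, had a log2 fold change of -0.23 (adjusted p = 0.0429), and its call was lost without control replicate 1 or 3 or without 25(OH)D replicate 1 or 2, with values from -0.28 to -0.18.

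Of the 7 genes that did not pass, CENPI, the fourth subunit of CENP-H/I/K/M and the member with the fewest reads, had 4.95, 4.36 and 3.37 CPM in control and 3.64, 2.89 and 2.58 CPM in 25(OH)D. Its highest 25(OH)D library lay within the control range, and its log2 fold change of -0.48 had a 95% interval from -0.88 to -0.08 (adjusted p = 0.0619). It passed without control replicate 3 or without 25(OH)D replicate 1, and its values with a library left out ran from -0.62 to -0.34. CENPT, the DNA-contacting partner of CENP-W, had a log2 fold change of -0.16 (adjusted p = 0.0621), CENPL -0.19 (adjusted p = 0.111) and its partner CENPN -0.087 (adjusted p = 0.413). CENPT passed without control replicate 1, when its value was -0.22. For CENPU the interval ran from -0.18 to 0.05, for CENPP from -0.19 to 0.20 and for CENPB from -0.04 to 0.24. CENPB, which encodes the protein that binds a DNA motif in centromeric alpha satellite, had a log2 fold change of 0.099 (adjusted p = 0.285), and without control replicate 3 it was called higher at 0.20.

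In the outer kinetochore, 14 of the 17 genes were lower in 25(OH)D, ZWINT was higher, and ZW10 and NSL1 did not pass. The median log2 fold change was -0.36. All 4 genes of the NDC80 complex were lower, as were all 3 of the SKA complex, 3 of the 4 of the MIS12 complex, both large microtubule-binding proteins CENPE and CENPF, and 2 of the 3 genes of the RZZ complex (KNTC1 and ZWILCH, with ZW10 not passed).

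CENPF, a large protein that joins the outer kinetochore in late G2 and binds microtubules, lies at chr1:214603195-214664588 on the plus strand of GRCh38. Its counts were 64878, 63104 and 58914 in control and 35537, 38537 and 30783 in 25(OH)D. In CPM these were 1558, 1668 and 1600 against 1011, 1002 and 945, so the groups were far apart beside the spread within each. The means were 1609 ± 55.7 CPM (SD, n = 3) and 986 ± 36.0 CPM (SD, n = 3), and the log2 fold change was -0.71 (SE 0.0375, adjusted p = 2.88e-09). CENPE, the kinesin motor that carries chromosomes towards the spindle equator, had 192, 205 and 202 CPM in control and 124, 126 and 121 CPM in 25(OH)D. Its groups did not overlap, and its log2 fold change was -0.69 (SE 0.0417, adjusted p = 1.21e-08).

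NUF2 forms with NDC80 the arm of the NDC80 complex that grips the microtubule, and SPC24 with SPC25 forms the end that faces the centromere. NUF2 had 76.1, 83.0 and 81.6 CPM in control and 51.9, 49.1 and 48.3 CPM in 25(OH)D, with no overlap and a log2 fold change of -0.69 (SE 0.0538, adjusted p = 1.87e-07). SPC25 had 41.4, 43.7 and 44.1 CPM in control and 31.0, 30.2 and 29.0 CPM in 25(OH)D, with no overlap and a log2 fold change of -0.52 (SE 0.0591, adjusted p = 9.13e-06). For the other 2 genes of the complex the log2 fold changes were -0.49 in NDC80 (adjusted p = 0.000601) and -0.30 in SPC24 (adjusted p = 0.00124). SKA3 is a subunit of the SKA complex, which keeps kinetochores on shortening microtubule ends. It had 42.9, 42.6 and 44.2 CPM in control and 33.7, 32.2 and 30.0 CPM in 25(OH)D, with no overlap and a log2 fold change of -0.43 (SE 0.0609, adjusted p = 6.57e-05). SKA1, at 5.94 ± 0.553 CPM in control (SD, n = 3), had a log2 fold change of -0.52 (adjusted p = 0.0099). SKA2 had the smallest change of the lower members, -0.15 (adjusted p = 0.0205), and its call was lost without control replicate 2 or 3 or without 25(OH)D replicate 2 or 3, with values from -0.18 to -0.12.

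The MIS12 complex joins the NDC80 complex to the inner kinetochore. Its subunit DSN1, which Aurora B phosphorylates, had a log2 fold change of -0.39 (adjusted p = 0.000178), PMF1 -0.23 (adjusted p = 0.0122), MIS12 -0.26 (adjusted p = 0.0449) and NSL1 -0.17 (adjusted p = 0.0701). The call of MIS12 was lost without control replicate 1 or 3 and without any 1 of the 25(OH)D replicates, and that of PMF1 without control replicate 2 or 3 or without 25(OH)D replicate 1. With a library left out, the log2 fold change of MIS12 ran from -0.33 to -0.21 and that of PMF1 from -0.28 to -0.19. In all 4 genes the 25(OH)D libraries lay below the control libraries. In the RZZ complex, which brings dynein and the checkpoint protein MAD1 to kinetochores, KNTC1 had a log2 fold change of -0.36 (adjusted p = 6.96e-05) and ZWILCH -0.30 (adjusted p = 0.00135). ZW10, which also works in membrane traffic outside mitosis, had 14.9, 15.3 and 14.6 CPM in control and 13.8, 15.1 and 16.6 CPM in 25(OH)D, with a log2 fold change of 0.021 (adjusted p = 0.876) and an interval from -0.16 to 0.21.

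ZWINT, which binds KNL1 and helps the RZZ complex onto kinetochores, was the outer kinetochore gene that rose. It lies at chr10:56357228-56361275 on the minus strand of GRCh38 and had 13644, 12892 and 13602 counts in control and 14190, 15813 and 12974 in 25(OH)D. In CPM these were 328, 341 and 369 against 404, 411 and 398. All 3 of the latter were above all controls, although by little beside the spread of the controls. Its means were 346 ± 21.3 CPM and 404 ± 6.59 CPM (SD, n = 3), and its log2 fold change was 0.23 (SE 0.0439, adjusted p = 0.00108). KNL1, its binding partner, which the table lists under its older name CASC5, had a log2 fold change of -0.46 (adjusted p = 2.5e-06).

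In the checkpoint group, 11 of the 13 genes were lower in 25(OH)D, BUB3 was higher and CDC20 did not pass. The median log2 fold change was -0.43. Of the 7 spindle checkpoint genes 5 were lower, and all 4 genes of the chromosomal passenger complex and both shugoshins were lower.

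BUB3 encodes the adaptor that recognises phosphorylated KNL1 and carries BUB1 and the BUB1B protein, BubR1, to kinetochores. It lies at chr10:123154277-123170467 on the plus strand of GRCh38 and shares no exon bases with another gene of the table. The reads counted on it were 2626, 2466 and 2317 in control and 6081, 7036 and 5492 in 25(OH)D. In CPM these were 63.1, 65.2 and 62.9 against 173, 183 and 169, so every 25(OH)D library was far above every control library and both groups were tight. The means were 63.7 ± 1.27 CPM and 175 ± 7.40 CPM (SD, n = 3), and the log2 fold change was 1.46 (SE 0.0458, adjusted p = 8.32e-12). It stood at place 405 from the top among the fold changes of all 18183 genes, and with a library left out its log2 fold change stayed between 1.43 and 1.49.

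The genes of the proteins that BUB3 carries fell. BUB1B encodes BubR1, the part of the checkpoint complex that blocks the anaphase-promoting complex. It had 181, 190.0 and 205 CPM in control and 122, 119 and 116 CPM in 25(OH)D, with no overlap and a log2 fold change of -0.69 (SE 0.0491, adjusted p = 7.08e-08). BUB1, the kinase that marks centromeric chromatin for shugoshin, had 39.7, 43.4 and 43.4 CPM in control and 30.6, 29.9 and 29.5 CPM in 25(OH)D. Its groups did not overlap, and its log2 fold change was -0.49 (SE 0.0605, adjusted p = 1.9e-05). TTK encodes MPS1, the kinase that phosphorylates KNL1 and so starts checkpoint signalling. It had 21.4, 22.7 and 26.4 CPM in control and 16.0, 14.7 and 12.3 CPM in 25(OH)D, which did not overlap, and a log2 fold change of -0.71 (SE 0.103, adjusted p = 9.08e-05).

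MAD1L1 and MAD2L1 encode MAD1 and MAD2, the pair that turns an unattached kinetochore into a diffusible signal. The log2 fold change of MAD2L1 was -0.26 (adjusted p = 0.00757) and that of MAD1L1 was -0.16 (adjusted p = 0.0199). The call of MAD1L1 was lost without control replicate 1 or 3 or without 25(OH)D replicate 1 or 2, with values from -0.19 to -0.12. CDC20, the activator of the anaphase-promoting complex that the checkpoint holds back, had 35.7, 31.8 and 31.9 CPM in control and 32.9, 35.3 and 32.8 CPM in 25(OH)D. The groups overlapped, and the log2 fold change was 0.023 (adjusted p = 0.826) with an interval from -0.12 to 0.17.

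**Figure D2:**
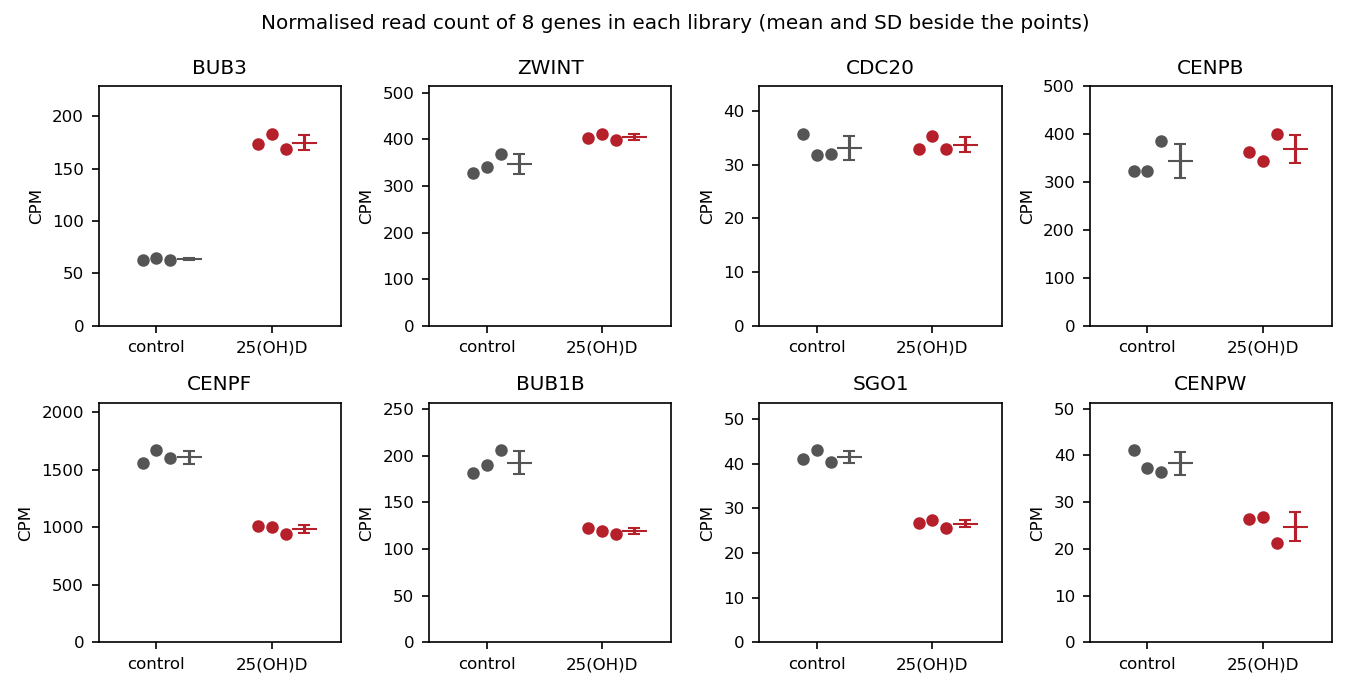
Normalised read count in CPM (vertical axes, each from 0) of 8 genes in each control and 25(OH)D library (horizontal axes). Points are single libraries, with the mean and SD of 3 libraries beside them. BUB3 is at 62.9 to 65.2 CPM in control and at 169 to 183 CPM in 25(OH)D, while CENPF, BUB1B, SGO1 and CENPW are lower in every 25(OH)D library and the groups of CDC20 and CENPB overlap.

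The chromosomal passenger complex corrects faulty attachments through its kinase, Aurora B. CDCA8, the subunit borealin that brings the complex to the centromere, had 32.0, 33.7 and 33.9 CPM in control and 24.1, 26.0 and 23.8 CPM in 25(OH)D, with no overlap and a log2 fold change of -0.43 (SE 0.0643, adjusted p = 0.000121). The kinase gene AURKB had a log2 fold change of -0.60 (adjusted p = 0.000276), BIRC5, the gene of survivin, -0.54 (adjusted p = 0.000141), and INCENP, the scaffold, -0.25 (adjusted p = 0.000944). In each of the 4 the highest 25(OH)D library was below the lowest control library. SGO1 protects centromeric cohesin until anaphase. It had 41.0, 42.9 and 40.4 CPM in control and 26.7, 27.3 and 25.7 CPM in 25(OH)D, with no overlap and a log2 fold change of -0.64 (SE 0.0599, adjusted p = 1.19e-06). SGO2, its paralogue, had a log2 fold change of -0.17 (adjusted p = 0.0264), and its call was lost without control replicate 2 or 3 and without any 1 of the 25(OH)D replicates, with values from -0.21 to -0.13.

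Levels of different genes were compared per length, as RPKM (the count divided by gene length and library total). For all 45 members this length is that of all exon bases of the gene, not of the transcripts present. Its part in the order of levels was not tested. In the control libraries ZWINT (148 RPKM), CENPF (140 RPKM), CENPB (123 RPKM) and INCENP (101 RPKM) stood highest, followed by CENPW (48.9 RPKM), SKA2 (46.3 RPKM) and BUB1B (43.6 RPKM). SKA1 (2.04 RPKM), CENPP (1.50 RPKM) and CENPI (0.993 RPKM) stood lowest. Of the 44 pairs of neighbours in this order, the control libraries of 30 overlapped, so their order is not resolved by the replicates. ZWINT and CENPF, in the top 2 places, were such a pair.

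Subunits of 1 complex had unlike levels. In the NDC80 complex the control means were 24.2 RPKM for NUF2, 23.7 for SPC25, 19.0 for SPC24 and 7.44 for NDC80, and in 25(OH)D they were 14.6, 16.1, 14.9 and 5.15 RPKM in the same order. In control, BUB3 had 7.79 RPKM, beside 7.09 RPKM for BUB1 and 43.6 RPKM for BUB1B. In 25(OH)D the level of BUB3 was 20.7 RPKM, against 4.90 RPKM for BUB1 and 26.2 RPKM for BUB1B. Its place in the order of the 45 levels was 31 in control and 9 in 25(OH)D.

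**Figure D3:**
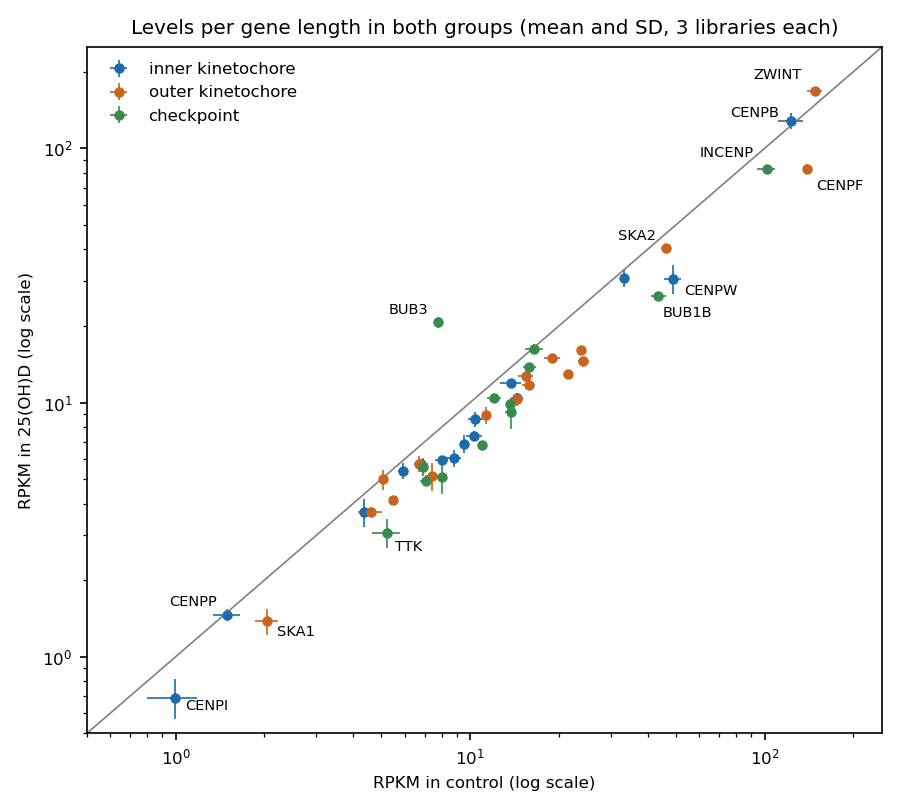
Mean RPKM of each of the 45 genes in 25(OH)D (vertical axis) against control (horizontal axis), both on a log scale, with bars for the SD of 3 libraries and colours for the role. The grey line marks equal levels. Most genes lie just under the line, ZWINT and CENPB lie just above it, and BUB3 is the point far above it, at 7.79 RPKM in control and 20.7 RPKM in 25(OH)D.

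The reads of some members may be shared with neighbouring genes. By the exon positions in the table, 16 of the 45 share exon bases with another gene and 29 share none. The library kit keeps the strand, but whether the counting used it is not given in the sources used here, so overlaps with a gene on the other strand also count as uncertain. Of the 29 members with no shared exon bases, 22 fell and 2 rose, and their median log2 fold change was -0.43. The overlaps that took the largest share of a member's exon bases were those of CENPP with IPPK (3719 bases, 38.0% of its exon bases, opposite strand), of CENPO with ADCY3 (1488 bases, 27.0%, opposite strand), of PMF1 with the read-through gene PMF1-BGLAP (587 bases, 23.3%, same strand) and of SGO1 with SGO1-AS1 (679 bases, 17.7%, opposite strand). BUB1B shares 457 bases (10.2%) with the read-through gene BUB1B-PAK6 on the same strand. CENPA shares 138 bases with SLC35F6 and NUF2 shares 5 bases with RGS5. BUB3, ZWINT, CENPF, CENPE, CENPW, CENPK, CENPQ, SPC25, SKA3, BUB1, TTK and CDCA8 share none. In the GENCODE transcripts, the share of stretches of 100 bases that another gene also holds was 38.1% for CENPP, 23.1% for CENPO and 20.3% for PMF1, and 0 for BUB3, ZWINT, CENPF and CENPE.

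Of 12 further genes of the kinetochore and of CENP-A loading, 7 (58.3%) fell and none rose, and the median log2 fold change was -0.39. Among all genes tested, 16.5% were lower and 17.3% were higher. HJURP, the chaperone that deposits CENP-A, had the smallest p of the list, with 89.8 ± 4.08 CPM in control and 53.0 ± 1.27 CPM in 25(OH)D (SD, n = 3) and a log2 fold change of -0.76 (adjusted p = 3.58e-08). Of the MIS18 proteins, which prepare the centromere for this loading, OIP5 had a log2 fold change of -0.79 (adjusted p = 0.00139) and MIS18A -0.31 (adjusted p = 0.029). ITGB3BP, which encodes CENP-R, was the gene of this list with the smallest p among those above 0, at a log2 fold change of 0.031 (adjusted p = 0.82).

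The mitotic cyclins, kinases and cleavage targets had 16 lower (76.2%, against 16.5% of all genes tested) and 1 higher of 21 genes, with a median of -0.49. CCNB2, a B-type cyclin, went from 91.1 ± 3.27 CPM to 49.9 ± 2.07 CPM (SD, n = 3), a log2 fold change of -0.87 (adjusted p = 1.03e-08). ARPP19, a small inhibitor of the phosphatase PP2A-B55 in mitosis, was the higher gene, from 88.7 ± 1.11 CPM to 144 ± 6.42 CPM (SD, n = 3), a log2 fold change of 0.70 (adjusted p = 2.25e-08).

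Among the genes of checkpoint silencing and of the anaphase-promoting complex with its regulators, the share of lower genes was not above that of all genes tested. Of 20 genes of checkpoint silencing and the anaphase-promoting complex, 2 (10%) were lower and none was higher, with a median of -0.039. Of all genes tested, 16.5% were lower, and their median was -0.011. The 2 lower genes were UBE2C, the ubiquitin-conjugating enzyme of that complex, with a log2 fold change of -0.76 (adjusted p = 1.17e-05), and FBXO5, its interphase inhibitor EMI1, with -0.44 (adjusted p = 0.000361). ANAPC4 had the smallest p of those above 0, at a log2 fold change of 0.18 (adjusted p = 0.124). TRIP13, the ATPase that disassembles the checkpoint complex, had a log2 fold change of -0.14 (adjusted p = 0.195).

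Of 13 genes of the DREAM and MuvB complexes with B-MYB and FOXM1, 4 (30.8%, against 16.5% of all genes tested) were lower and none was higher, with a median of -0.14. FOXM1 had a log2 fold change of -0.43 (adjusted p = 6.12e-05) and LIN9, a MuvB subunit, -0.47 (adjusted p = 0.000111), and the other lower genes were LIN54 (-0.25, adjusted p = 0.00682) and RBL1 (-0.26, adjusted p = 0.0108). RBBP4 had the smallest p of those above 0, at a log2 fold change of 0.085 (adjusted p = 0.208). MYBL2, the gene of B-MYB, had 12470, 8314 and 7966 counts in control and 5538, 5965 and 12101 counts in 25(OH)D. In RPKM, 25(OH)D replicates 1 and 2 (55.7 and 55.4) were below every control library (78.6 to 110), and replicate 3 (131) was above them all. The groups thus overlapped through this 1 library, and the log2 fold change of MYBL2 was -0.11 (SE 0.25, adjusted p = 0.783).

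**Figure D4:**
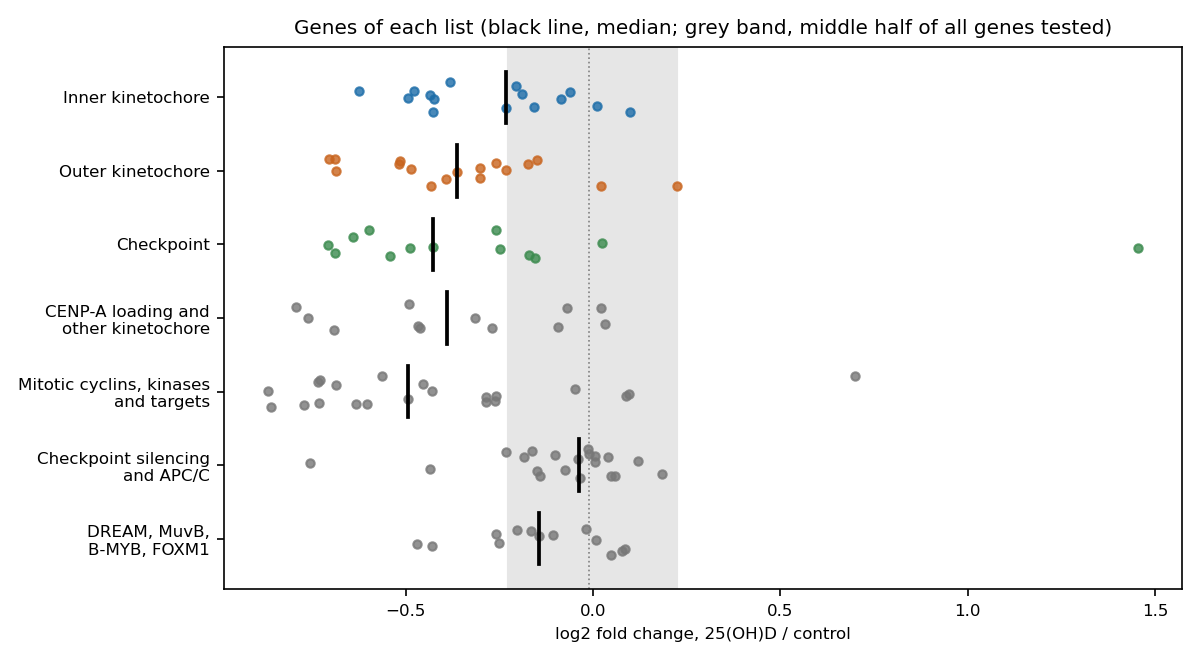
Log2 fold change of 25(OH)D against control (horizontal axis) of every gene of the 3 roles and of the 4 further lists (vertical axis). Points are genes, black lines are the medians of the lists, the dotted line is the median of all genes tested and the grey band holds their values between the quartiles, -0.23 and 0.22. The medians of the 3 roles are -0.23, -0.36 and -0.43 (-0.43, -0.41 and -0.43 without the members that share exon bases with another gene), and that of checkpoint silencing and the anaphase-promoting complex is -0.039.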

How the data were processed

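The mRNA of 6 libraries was sequenced in paired-end mode by a company for the authors, from a stranded kit. The submitters' processing notes name Trimmomatic 0.36, featureCounts of Subread 1.5.1, edgeR 3.12.1 and GRCh38, and the aligner and annotation release are not given in the sources used here. The authors deposited raw counts per gene, in which no normalisation had been applied, and RPKM values, which equal each count over gene length and library total (largest relative difference 2.23e-13). Libraries were grouped by their labels, and every column of values was used.

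Counts were tested in R 4.3.3 with edgeR 4.0.16 (TMM, the default low-count filter with a minimum count of 10, quasi-likelihood test, Benjamini-Hochberg adjustment over 18183 genes), without covariates. The biological coefficient of variation was 0.0788. The procedure was tested on simulated data, in which all genes had this same coefficient and the changes were larger than those of most members. That test does not cover the smallest changes called here. No pair of libraries of a group was a duplicate (chi-square per gene 4.01 to 12.1). Depth was 33268860 to 40928176 counts, and intervals cover 95%.

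The members and lists were chosen with earlier results of these data known. Every member is named, and up to 5 members of the smallest p in each role and direction have every library's value. In each further list the gene of the smallest p in each direction is named, and the other genes named there were chosen after their values were seen. Alternatives were other scalings, filters, DESeq2 1.42.0, limma 3.58.1 on log2(RPKM + 1) and log2(RPKM + 0.1), the replicate number as a block and each library left out. Further steps used Python 3.11.15. Promoter and transcript sequences came from RefSeq and GENCODE tables. Some further genes are not reported here.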

Additional observations from a re-analysis of the deposited data

How the results depend on the processing

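Over 16 alternatives, BUB3 and ZWINT stayed higher and 26 of the 33 lower members stayed lower. The other 7 lower calls (CENPC, CENPM, MIS12, PMF1, SKA2, MAD1L1 and SGO2) were lost under at least 1 of them, and 4 members that did not pass (CENPB, CENPI, CENPT and NSL1) were called under at least 1. The sign turned in CENPP, CENPU, ZW10 and CDC20, none of which was called. DESeq2 gave 31 lower and 2 higher members. Upper-quartile factors moved the median log2 fold change of the members to -0.41 (inner kinetochore -0.28, outer -0.41, checkpoint -0.47), and library sizes alone to -0.41 (-0.28, -0.41 and -0.47). These scalings moved the median of all genes by -0.042 and -0.044. With limma on log2(RPKM + 0.1) the medians of the inner kinetochore and the checkpoint group were -0.27 and -0.47. That setting moved the median of all genes by -0.041. Its RPKM values are scaled by library totals without TMM, like the setting of library sizes alone, and the part of this scaling was not tested. Without the members that share exon bases, fewer genes remain, with 9 outer kinetochore and 7 checkpoint genes lower and medians of -0.43 over all, -0.43 in the inner and -0.41 in the outer kinetochore. With each library left out in turn, 27 to 31 members were lower and 2 to 3 higher, the inner kinetochore had 0 to 1 higher genes (CENPB without control replicate 3), and its median ran from -0.28 to -0.20. The labels do not say whether same-numbered libraries were paired. Deviations of same-numbered libraries had correlations of -0.072, -0.012 and -0.046, and those of the other pairs ran from -0.016 to 0.063. With 3 libraries in a group, such values cannot show whether the cultures were paired. With the replicate number as a block, 35 members fell and 2 rose, at a median of -0.36, and 5953 of all genes were called instead of 6142. At the depth of CENPI, with 2.58 to 4.95 CPM, the interval of the log2 fold change spanned from -0.88 to -0.08.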
